A study of Mus musculus with 6 samples.

Results

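Transcripts of 10 genes of the hepatic insulin receptor pathway were followed in livers of mice wild-type or heterozygous for Ptprd, the gene of receptor-type protein tyrosine phosphatase delta. The members were taken by gene name from a table of read counts: the receptor gene Insr, the adaptors Irs1 and Irs2, the PI3-kinase subunits Pik3r1 and Pik3ca, the kinases Akt1 and Akt2, and the brakes Grb10, Grb14 and Ptpn1. All 10 names were found among the 25904 genes of the table, and all 10 passed the filter on low counts, which kept 14606 genes. Polyadenylated RNA from 3 Ptprd+/+ livers (WT) and 3 Ptprd+/- livers (Het), all of the C57BL/6J strain, had been sequenced from strand-specific libraries. The sources used here do not give the kind of Ptprd allele, the sex, age or feeding state of the mice, or the hour of collection. Nothing in the labels says whether the 3 samples of a genotype came from separate animals, and if they did not, the p-values measure technical spread only.

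Total counts lay between 37924266 and 72954187 per library. Ptprd had 127 to 132 CPM among WT livers and 54.1 to 78.1 CPM in Het, so its level followed the labels in every library (CPM are counts per 1000000, with library sizes scaled by edgeR's TMM). Liver identity was clear from 6 hepatocyte markers, among them Alb, whose summed level was 125900 to 151400 CPM among WT livers and 151800 to 183100 CPM in Het. Markers of other cells were low by comparison. The 6 Kupffer cell markers summed to 338.2 to 530.3 CPM among WT livers and 242.7 to 450.4 CPM in Het. The 6 leukocyte markers summed to 13.5 to 22.7 CPM among WT livers and 9.60 to 15.2 CPM in Het. Every one of the 25904 genes had counts in some library, so no marker among them could be at 0 throughout. The markers Lep (adipocyte), Cpa1 and Amy2a5 (exocrine pancreas) and Myh4 (skeletal muscle) were not among these genes. Clock genes set Het 2 and Het 3 apart from the other 4 libraries, with Dbp at 129 and 122 CPM against 13.5 to 29.6 CPM.

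When insulin binds its receptor, the receptor phosphorylates the IRS adaptors on tyrosine. These recruit PI3-kinase, a dimer of a catalytic and a regulatory subunit, whose lipid product brings AKT to the membrane. In hepatocytes AKT restrains the transcription factor FOXO1, which lowers glucose output, and promotes lipid synthesis. The brakes act at the top of this chain. Grb10 and Grb14 encode adaptors that bind the active receptor and block its kinase, and Ptpn1 encodes PTP1B, a phosphatase that removes phosphate from the receptor. Most of the pathway is switched by phosphorylation of proteins, which RNA does not show.

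Across the 10 genes no difference between the genotypes was resolved. By edgeR's quasi-likelihood test 0 members had an adjusted p under 0.05 (0% of all tested genes did). At an unadjusted p under 0.05 edgeR also counted 0 members, where 7.15% of all tested genes passed, 3.39% higher and 3.77% lower in Het. DESeq2 called 0 members at an adjusted p under 0.05, which 0.511% of the genes it adjusted passed, and 0 at an unadjusted p under 0.05 (6.79% of genes). Limma-voom gave 0 members by either count, with 0% of genes at its adjusted and 7.33% at its unadjusted threshold. Ptprd itself, 1.98-fold lower in Het, passed the adjusted threshold by DESeq2 (adjusted p 2.01e-06). It did not pass by edgeR (adjusted p 0.298) or limma-voom (adjusted p 0.356). A difference of that size can thus miss the adjusted threshold of these 2 tests. By the sign of the fitted log2 fold change 7 members were lower and 3 higher in Het. The median of these fold changes was -0.07, and over all tested genes it was -0.0039. In 1 member, Irs1, the genotypes did not overlap, with Het lower, while 13.9% of tested genes had genotypes that did not overlap, and 6.72% of tested genes had all of Het below WT. In bulk tissue, fewer cells of a type and less RNA per cell cannot be told apart.

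**Figure D1:**
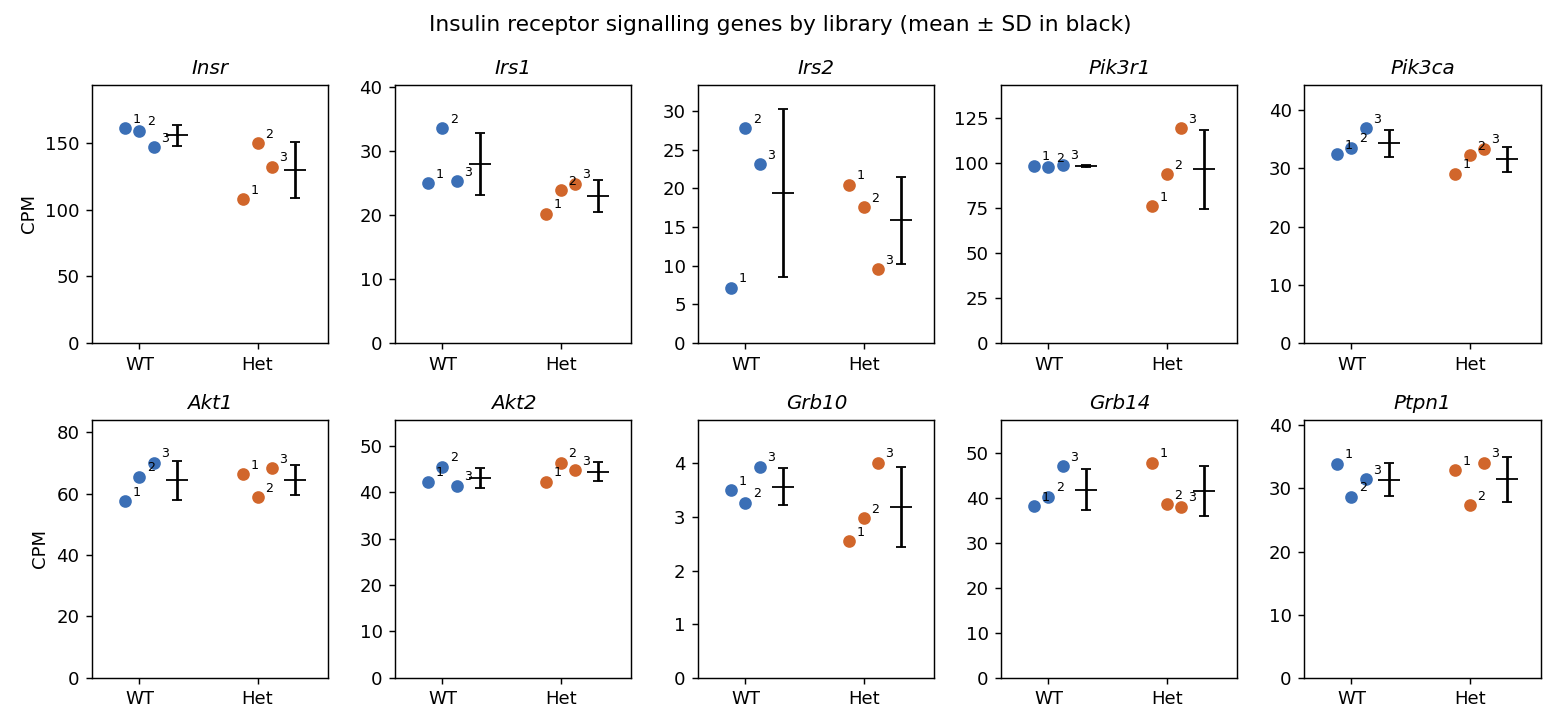
Level of each of the 10 genes in CPM (linear axes from 0) for WT (blue) and Het (orange), 1 point per library with its replicate number, and the mean ± SD of 3 libraries in black. The genotypes overlap for 9 genes and not for Irs1, and Irs2 has the widest spread, from 7.14 to 27.8 CPM.

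Insr, which encodes the insulin receptor itself (ENSMUSG00000005534, chromosome 8, 3122061 to 3279617, mm10), had 161, 159 and 147 CPM in WT 1, WT 2 and WT 3. In Het 1, Het 2 and Het 3 it had 108, 149.7 and 132 CPM. Het 1 and Het 3 were below every WT library, and Het 2 lay inside the WT range. The means were 156 ± 7.93 CPM among WT livers and 129.9 ± 21.1 CPM among Het livers (SD, n = 3), 1.198-fold lower in Het. The log2 fold change was -0.26 (SE 0.13, 95% interval -0.56 to 0.04), with an edgeR p of 0.0815 and an adjusted p of 0.712. Without Het 1 the log2 fold change was -0.15, and without Het 2 it was -0.37 with an unadjusted edgeR p of 0.0241. In the fit without Het 2, 1428 genes had an unadjusted p under 0.05, against 1045 with all libraries. The adjusted p of Insr lay between 0.268 and 0.955 over the alternatives tried. The plot of CPM by library shows that the spread in Het, with a coefficient of variation of 16.2%, was wider than the 5.09% in WT, a difference that was not tested.

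Irs1 and Irs2 encode the adaptors that carry the signal from the receptor to PI3-kinase, and Irs2 is known in liver as a gene that fasting raises and insulin lowers through FOXO1. Irs1 (ENSMUSG00000055980) lies on chromosome 1 at 82233101 to 82291416, and Irs2 (ENSMUSG00000038894) on chromosome 8 at 10984681 to 11008458 (mm10, both on the minus strand). The 250 bases before the RefSeq start of each are shown because Irs2 varied most of the members and Irs1 is its nearest relative here. That of Igfbp1, a secreted binding protein whose promoter holds a classical insulin response element, stands beside them. All are from RefSeq's table for GRCm38.p6 (the assembly mm10), printed 5′ to 3′ on the gene's strand. Capitals mark every match, on either strand, to 5 short motifs. These are the insulin response core TGTTTTG, its variant core TATTTTG, the FOXO core TGTTTAC, the E-box CACGTG, which clock and lipogenic factors bind, and CCCCAC, a core of sterol response elements.
Irs2, chr8:11008930-11009179, minus strand: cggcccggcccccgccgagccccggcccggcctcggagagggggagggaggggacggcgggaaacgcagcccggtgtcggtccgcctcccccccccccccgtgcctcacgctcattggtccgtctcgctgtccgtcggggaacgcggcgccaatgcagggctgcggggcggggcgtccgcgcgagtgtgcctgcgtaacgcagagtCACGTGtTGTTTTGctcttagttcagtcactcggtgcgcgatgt
Irs1, chr1:82291440-82291689, minus strand: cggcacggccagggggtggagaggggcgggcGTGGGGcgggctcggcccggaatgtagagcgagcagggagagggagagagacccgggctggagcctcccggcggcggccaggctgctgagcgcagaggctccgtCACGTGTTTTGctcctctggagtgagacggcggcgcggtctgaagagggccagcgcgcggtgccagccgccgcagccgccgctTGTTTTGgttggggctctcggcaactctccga
Igfbp1, chr11:7197537-7197786, plus strand: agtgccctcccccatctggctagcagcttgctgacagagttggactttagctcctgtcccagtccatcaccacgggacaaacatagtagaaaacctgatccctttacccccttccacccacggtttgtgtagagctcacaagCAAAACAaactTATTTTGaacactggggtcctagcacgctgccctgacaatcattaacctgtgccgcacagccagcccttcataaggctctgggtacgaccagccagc
In Irs2 an E-box that begins 44 bases before the start site is followed by an insulin response core that begins 37 bases before it. In Irs1 the same pair of motifs overlaps, with the E-box from 115 and the core from 111 bases before the start. Irs1 has another core from 32 bases and a sterol response core on the other strand from 219 bases before it. In Igfbp1 the core begins 108 and the variant core 97 bases before the start, and no E-box of these letters lies in the window. Of 32851 such windows in the table, 5.56% held the insulin response core, 3.95% its variant, 3.17% the FOXO core, 6.02% the E-box and 25.5% the short sterol response core. Of the 10 members, 9 had at least 1 window in the table. The other members' windows held 4 sterol response cores in Grb14, 1 each in Akt2 and Pik3r1, 1 variant core in Pik3r1 and 1 FOXO core in Akt1. Distances are from RefSeq's start. For Irs2 and Irs1 it lies upstream of the start of the counted gene, at 11008458 and 82291416 on the minus strand. A match describes the letters and is no evidence of a bound factor.

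Irs1 had 25.0, 33.6 and 25.3 CPM in WT 1, WT 2 and WT 3, and 20.2, 23.8 and 24.9 CPM in the Het livers 1, Het 2 and Het 3. Every Het library was below every WT library, but Het 3 came close to WT 1. The means were 27.97 ± 4.90 CPM in the WT livers and 22.98 ± 2.47 CPM in the Het livers (SD, n = 3), 1.22-fold lower in Het. The log2 fold change was -0.28 (SE 0.15, 95% interval -0.62 to 0.05), with an edgeR p of 0.0869 and an adjusted p of 0.72004. The exact permutation p (two-sided) was 0.1, the smallest that 3 against 3 libraries allow. WT 2 carried much of the difference: without it the log2 fold change was -0.12. The exons of Irs1 share 2822 bases with Gm9747 on the opposite strand. The sources used here do not say whether strand was used in counting, and without strand the reads of these bases cannot be assigned to either gene. Gm9747 had 1 count in all libraries together.

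Irs2 differed more between libraries of the same genotype than between genotypes. It had 7.14, 27.8 and 23.2 CPM in WT 1, WT 2 and WT 3, and 20.5, 17.5 and 9.50 CPM in the Het livers 1, Het 2 and Het 3. WT 1 was the lowest library of all and WT 2 the highest, 3.90 times apart, on 329 and 1424 counts. Het 3, the second lowest, rested on 708 counts. The SD of its log2 CPM over the 6 libraries stood at percentile 98.7 of the tested genes with a mean of at least 5 CPM, while those of the other members with that level stood between percentiles 4.39 and 75.4. The means were 19.4 ± 10.8 CPM in the WT livers and 15.8 ± 5.69 CPM in the Het livers (SD, n = 3), and the log2 fold change was -0.30 (SE 0.46, edgeR adjusted p 0.898). Its 95% interval, -1.36 to 0.77, runs from 0.39 to 1.70 times the WT level. Without WT 1 the log2 fold change was -0.69, without WT 2 it was 0.07, and without Het 3 it was -0.03. The exons of Irs2 share 162 bases with 9530052E02Rik on the opposite strand, which had 23 counts in all.

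Among transcripts that insulin is known to control in liver, the libraries low in Irs2 were set beside the rest after the values had been seen. Igfbp1, which insulin lowers, had 27.0, 51.1 and 40.7 CPM in WT 1, WT 2 and WT 3, and 60.4, 21.3 and 4.74 CPM in the Het livers 1, Het 2 and Het 3. Angptl8, a feeding-induced hormone gene that insulin raises, had 90.02, 37.1 and 34.0 CPM in the WT livers and 30.7, 71.5 and 102.6 CPM in the Het livers, in the same order. WT 1 and Het 3, the lowest libraries for Irs2, were the highest for Angptl8, and Het 3 was the lowest for Igfbp1. Of 15 such transcripts correlated with Irs2 over the 6 libraries on the log2 CPM scale, Angptl8 had the strongest relation, with Pearson's r of -0.87 (exact permutation p 0.0222, 0.333 adjusted over the 15 relations) and Spearman's rho of -0.71 (exact p 0.136, adjusted 0.656). Without WT 1 and Het 3, the libraries farthest from the median of Irs2, r was -0.62 over the 4 others, too few to test. For Igfbp1 r was 0.64 (exact permutation p 0.16, adjusted 0.713) and rho 0.66 (exact p 0.175, adjusted 0.656), and r was 0.64 without them. None of the 15 relations passed the adjustment by either measure. For other transcripts of these lists the relation was near 0, as for Pck1, the gluconeogenic carboxykinase gene, with r of 0.02 (exact permutation p 0.983, adjusted 0.986) and rho of -0.37 (exact p 0.497, adjusted 0.678). Without WT 1 and Het 3 its r was -0.93. The labels do not state when the mice had last fed.

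**Figure D2:**
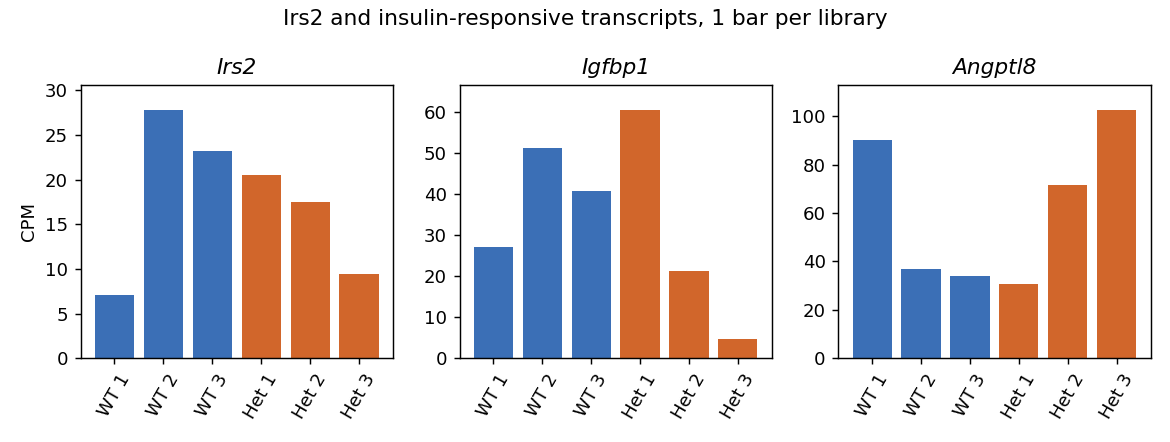
Level in CPM (linear axes from 0) of Irs2, Igfbp1 and Angptl8, 1 bar per library, WT in blue and Het in orange. WT 1 and Het 3 have the lowest Irs2 bars (7.14 and 9.50 CPM) and the highest Angptl8 bars (90.02 and 102.6 CPM).

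Of the PI3-kinase subunit genes, Pik3r1 was spread widely over the Het libraries, and Pik3ca was not. Pik3r1 (ENSMUSG00000041417, chromosome 13, 101680563 to 101768217), which encodes the main regulatory subunit, had 98.6, 97.5 and 99.02 CPM in WT 1, WT 2 and WT 3. In Het 1, Het 2 and Het 3 it had 75.9, 93.8 and 119.5 CPM. The 3 WT libraries were nearly equal, with a coefficient of variation of 0.773%, whereas Het 1 was below and Het 3 above all of them (22.7%). The means were 98.4 ± 0.761 and 96.4 ± 21.9 CPM (SD, n = 3), and the log2 fold change was -0.03 (SE 0.16, 95% interval -0.39 to 0.33, edgeR adjusted p 0.9798). It was 0.11 without Het 1 and -0.21 without Het 3. Pik3ca (ENSMUSG00000027665, chromosome 3, 32397671 to 32468486), which encodes a catalytic subunit, had 32.4, 33.5 and 36.97 CPM in the WT livers and 29.1, 32.2 and 33.4 CPM in the Het livers. Its log2 fold change was -0.12 (SE 0.10, 95% interval -0.35 to 0.11, edgeR adjusted p 0.801), and -0.0611 without WT 3 and -0.0705 without Het 1.

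Akt2, the AKT gene best known for insulin's control of glucose, varied least of the members with at least 5 CPM, with its SD over the 6 libraries at percentile 4.39. Akt2 (ENSMUSG00000004056, chromosome 7, 27591552 to 27640826) had 42.3, 45.5 and 41.4 CPM in WT 1, WT 2 and WT 3. In Het 1, Het 2 and Het 3 it had 42.3, 46.4 and 44.8 CPM. The genotypes overlapped, with a log2 fold change of 0.05 (SE 0.09, edgeR adjusted p 0.923) and a 95% interval from 0.893 to 1.195 times the WT level. The pseudogene Akt2-ps, whose reads could be confused with those of Akt2, had 116 counts in all libraries against 12889 for Akt2. Akt1 (ENSMUSG00000001729, chromosome 12, 112653821 to 112674884), the broadly expressed AKT gene, had 57.5, 65.5 and 70.1 CPM in the WT livers and 66.2, 58.9 and 68.3 CPM in the Het livers. Its log2 fold change was 0.0020 (SE 0.11, edgeR adjusted p 0.998), with a 95% interval from 0.84 to 1.19 times the WT level.

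The brakes on the receptor did not differ between the genotypes beyond the spread of the libraries. Grb14 (ENSMUSG00000026888, chromosome 2, 64912476 to 65024987) had 38.2, 40.3 and 47.03 CPM in WT 1, WT 2 and WT 3. In Het 1, Het 2 and Het 3 it had 47.8, 38.6 and 38.0 CPM. Het 1 was the highest library and Het 3 the lowest, and the log2 fold change was -0.01 (SE 0.13, 95% interval -0.31 to 0.28, edgeR adjusted p 0.988). Grb10 (ENSMUSG00000020176, chromosome 11, 11930508 to 12038683), an imprinted gene related to Grb14, had the fewest reads of the members, 93 to 299 counts per library. It had 3.49, 3.26 and 3.94 CPM in the WT livers and 2.55, 2.98 and 4.01 CPM in the Het livers. Het 1 and Het 2 were below all WT libraries and Het 3 above them, and the log2 fold change was -0.15 (SE 0.21, 95% interval -0.63 to 0.32, edgeR adjusted p 0.882). Without Het 3 it was -0.36, and without Het 1 it was -0.03. Ptpn1 (ENSMUSG00000027540, chromosome 2, 167932057 to 167979385) had 33.9, 28.7 and 31.5 CPM in the WT livers and 32.9, 27.3 and 34.1 CPM in the Het livers. Its means of 31.37 ± 2.62 and 31.4 ± 3.598 CPM (SD, n = 3) gave a log2 fold change of 0.0028 (SE 0.12, 95% interval -0.27 to 0.27, edgeR adjusted p 0.998).

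**Figure D3:**
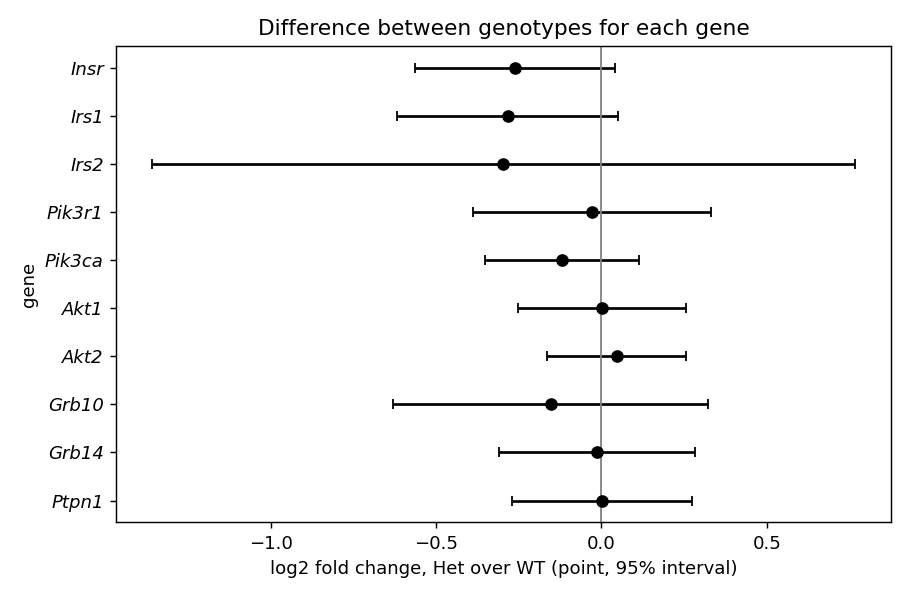
Fitted log2 fold change of Het over WT for each gene (point) with its 95% interval (bar) from edgeR's quasi-likelihood fit, with 0 as a grey line. Every interval includes 0, the narrowest being that of Akt2 (-0.16 to 0.26) and the widest that of Irs2 (-1.36 to 0.77).

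Levels were compared between genes only after division by length, as CPM per kb of the union of all annotated exons (GENCODE M21). In WT, Akt1 came first at 15.7 ± 1.55 CPM per kb (SD, n = 3), and all of its libraries in both genotypes were above those of any other member. Insr at 11.3 ± 0.577 and Pik3r1 at 9.76 ± 0.0755 CPM per kb followed, and these 2 overlapped once the Het libraries were counted. Akt2, Grb14 and Ptpn1 formed a close group at 6.04 ± 0.302, 5.82 ± 0.644 and 5.67 ± 0.473 CPM per kb, with overlapping libraries. Pik3ca at 3.77 ± 0.261, Irs2 at 3.06 ± 1.72 and Irs1 at 3.06 ± 0.536 CPM per kb overlapped as well. Grb10 was lowest by a wide margin, at 0.392 ± 0.0376 CPM per kb. In Het the order changed only between overlapping neighbours: Pik3r1 (9.57 ± 2.175) stood before Insr (9.45 ± 1.53), and Irs1 (2.51 ± 0.271) before Irs2 (2.506 ± 0.8995). The order depends on the length used. With the longest protein-coding transcript, an alternative added after seeing the data, Grb14 moved from the fifth to the second place at 21.1 ± 2.33 CPM per kb of that transcript in WT, behind Akt1 at 23.9 ± 2.36.

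Ratios of 2 members within a library, which do not depend on the scaling of libraries, did not separate the genotypes either. The log2 ratio of Ptpn1 to Insr counts, brake over receptor, stood at -2.25, -2.47 and -2.22 in WT 1, WT 2 and WT 3. It stood at -1.71, -2.45 and -1.96 in Het 1, Het 2 and Het 3. Het 1 and Het 3 were above every WT library and Het 2 was within the WT range. The ratio was 0.27 higher in Het on the log2 scale (exact permutation p 0.3, two-sided, 0.8 adjusted over 5 ratios). The difference was 0.11 without Het 1 and 0.48 without Het 2. The log2 ratio of Irs2 to Irs1 ran -1.81, -0.27 and -0.13 in the WT livers, and 0.02, -0.44 and -1.39 in the Het ones, a difference of 0.13 (exact permutation p 0.8). WT 1 and Het 3 stood apart on this ratio, as they did for Irs2 alone. The remaining ratios, Akt2 to Akt1, Pik3r1 to Pik3ca and Grb14 to Grb10, differed by 0.04, 0.07 and 0.17 on the log2 scale, with exact permutation p-values of 0.8, 0.8 and 0.7. With 3 libraries against 3 no p below 0.1 is possible.

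Het 1 had the lowest value of all 6 libraries for 5 of the 10 members, namely Insr, Irs1, Pik3r1, Pik3ca and Grb10. The members together took 0.0417% of its counts, against 0.0491 to 0.0564% in the other libraries. Het 1 also stood apart by gene length. Exon length classes, chosen after the values were seen, were compared among tested genes with a mean of at least 5 CPM. The 3183 genes with 6 kb or more of exon deviated from their own mean over the libraries by a median of -0.12 in Het 1 (log2 CPM), against -0.0014 to 0.05 in the other libraries. The 1074 genes under 2 kb had a median deviation of 0.18 in Het 1, against -0.09 to 0.0094 elsewhere. All 5 members that were lowest in Het 1 are of 6 kb or more, as are 8 of the 10 members. The median log2 fold change of the genes of 6 kb or more was -0.07, the same to 2 decimals as that of the members, and that of the genes under 2 kb was 0.08. The hepatocyte marker sum was highest in Het 1, at 183100 CPM, of which Alb made up 144114 CPM. Alb, Apoa1 and Serpina1c were highest in Het 1, Ttr and Cyp2e1 in Het 3, and Cps1 in WT 1. Cps1 had 3774 CPM in Het 1, below the WT range of 4143 to 5737 CPM. The part of gene length or of the cell make-up in the levels of Het 1 was not tested.

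**Figure D4:**
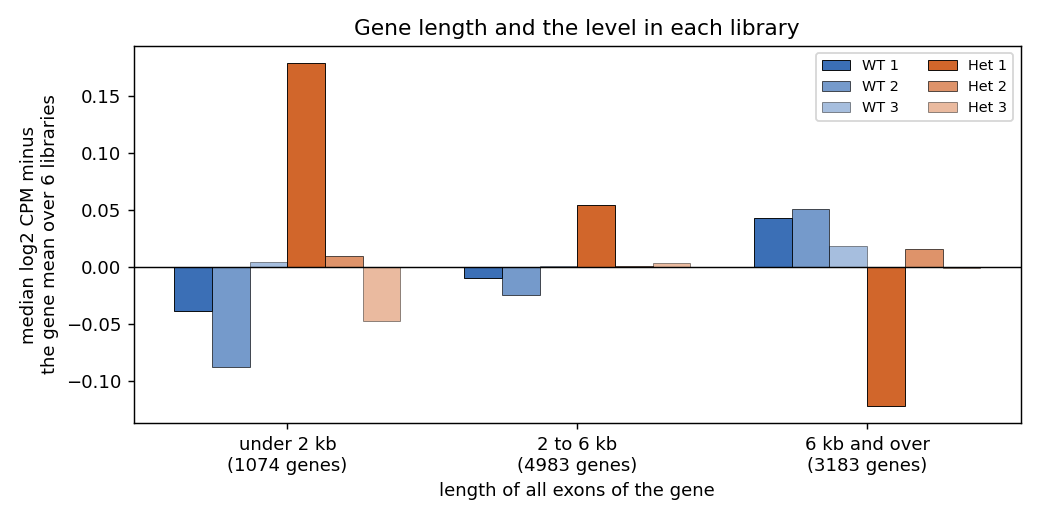
Median deviation of genes from their own mean over the 6 libraries (log2 CPM), by exon length class (number of genes in brackets) and library, WT in shades of blue and Het in shades of orange. Het 1 is highest in the shortest class (0.18) and lowest in the longest class (-0.12).

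An alternative fit took account of the clock genes that set Het 2 and Het 3 apart. In a fit with a clock score as a covariate, the log2 fold change of Insr was -0.44 (edgeR p 0.0071, adjusted p 0.268) and that of Irs1 -0.45 (edgeR p 0.01605, adjusted p 0.311). Without Het 2 and Het 3, in a fit that assumes that the lone Het 1 varies like the WT libraries, Insr was at -0.53 (edgeR p 0.0080, adjusted p 0.304) and Pik3r1 at -0.37 (edgeR p 0.0221, adjusted p 0.316). In each of these fits 2 members had an unadjusted p under 0.05, where 13.6% of all tested genes passed with the clock score and 13.7% without Het 2 and Het 3, and 0 members passed the adjusted threshold. The clock score was 5.35 in Het 2, 5.62 in Het 3 and 0.811 in Het 1. In the WT libraries it was 1.35 to 2.59. In the first fit, too, Het 1 was thus the only Het library near the WT scores, so these fits are not independent. Genes with 6 kb or more of exon were low in Het 1, and Insr, Irs1 and Pik3r1 are of that length. The part of gene length in these fits was not tested. The second fit has Het 1 as its only Het library. In Het 1 Dbp (13.5 CPM) was just below the WT range and Arntl, a clock gene of opposite phase (21.4 CPM), just above it. In Het 2 and Het 3 Arntl was at 2.41 and 1.92 CPM, against 11.8 to 19.7 CPM in the WT livers.

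The rest of the pathway was read from 7 lists with 82 gene names, of which 81 were those of tested genes. By edgeR 0 of the 81 had an adjusted p under 0.05, and 9 had an unadjusted p under 0.05, 2 higher and 7 lower in Het. These 9 are 11.1% of the 81, where 7.15% of all tested genes passed. The lists were chosen with earlier results of these data known, so such shares are no test of the pathway. Of the 81, DESeq2 called 4 at an adjusted p under 0.05, namely Trib3, Pdk4, Pnpla3 and Acacb. Of all genes it adjusted, 0.511% passed. The median log2 fold change of the 81 was -0.03. Of the 11 receptor-proximal adaptors 4 were higher and 7 lower, none at an unadjusted p under 0.05, with a median of -0.0063. Shc1, an adaptor toward the RAS pathway, had a log2 fold change of 0.14 and Sh2b1, an adaptor that aids receptor signalling, of 0.12. Akt1s1, whose product is an AKT substrate within an mTOR complex, had a log2 fold change of 0.23, and Rps6kb1, the S6 kinase gene, of -0.20. They were 0.13 without Het 1 and -0.12 without Het 2, respectively. The 10 AKT substrates were split 5 and 5, with a median of -0.0025, with Gsk3a, a kinase of glycogen synthase, at 0.17 and Pde3b, an insulin-activated phosphodiesterase, at -0.26. Pde3b was at -0.0954 without Het 1 and at -0.455 without Het 2, with an unadjusted edgeR p of 0.0226. In the fit without Het 2, 1428 genes had an unadjusted p under 0.05, against 1045 with all libraries.

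Of the 7 other PI3-kinase genes 6 were lower and 1 higher. Their median log2 fold change was -0.20, and it was -0.10 without Het 1 and -0.53 without both Het 2 and Het 3. In this list 14.3% of the genes, against 7.15% of all tested genes, had an unadjusted p under 0.05 by edgeR, namely 1 gene. That was Pik3c2g, a class II PI3-kinase gene of liver, with 6.95, 4.73 and 4.31 CPM in WT 1, WT 2 and WT 3 and 4.28, 3.73 and 3.33 CPM in the Het livers 1, Het 2 and Het 3 (edgeR p 0.0474, adjusted p 0.694). Every Het library was below every WT library, with Het 1 close to WT 3, and the log2 fold change of -0.50 was -0.26 without WT 1. Pik3cg, a class I catalytic subunit gene typical of leukocytes, had 1.44 ± 0.614 CPM in the WT livers and 0.93 ± 0.288 CPM in the Het livers (SD, n = 3). Its log2 fold change of -0.61 was -0.21 without WT 1, which had 2.15 CPM. The leukocyte markers summed to 13.5 to 22.7 CPM in the WT livers and 9.60 to 15.2 CPM in the Het livers, ranges that overlap. Most of the sum was Ptprc, with 18.7 CPM in WT 1. Cd3e of the same list was at 0.658 and 0.698 CPM in Het 1 and Het 3, above the WT range of 0.294 to 0.586 CPM. The part of leukocytes in the level of Pik3cg was not tested.

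Among 23 other brakes 12 were higher and 11 lower, and the median log2 fold change was 0.0045. By edgeR 4 had an unadjusted p under 0.05, 2 in each direction. They are 17.4% of the list, where 7.15% of all tested genes passed. Trib3 encodes a pseudokinase reported to bind AKT and is also a target of the ER stress response. It had 1.76, 1.62 and 1.28 CPM in WT 1, WT 2 and WT 3 and 2.36, 4.56 and 3.61 CPM in the Het livers 1, Het 2 and Het 3. All Het libraries were above all WT libraries, by 2.26-fold on average (edgeR p 0.00237, adjusted p 0.577, DESeq2 adjusted p 0.0202). Without Het 2 and Het 3 its log2 fold change was 0.60, against 1.17 with all libraries. Socs3, a cytokine-induced inhibitor of receptor signalling, had 6.95 ± 2.58 CPM in the WT livers and 14.05 ± 8.56 CPM in the Het livers (SD, n = 3). Its log2 fold change of 1.03 (edgeR p 0.0406, adjusted p 0.694) was 0.41 without Het 3, which had 23.8 CPM. The other 2, chosen after their values were seen, were lower in Het. Ptprj, a receptor phosphatase gene, was 1.34-fold lower (edgeR p 0.0408, adjusted p 0.694), and Cbl, a ubiquitin ligase gene, was 1.302-fold lower (edgeR p 0.0448, adjusted p 0.694).

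In both lists of transcripts that insulin controls in liver, more genes were lower than higher in Het. Of 8 that insulin lowers, 6 were lower and 2 higher in Het. Their median log2 fold change was -0.26, and -0.14 without Het 1. By edgeR 2 of the 8 had an unadjusted p under 0.05, which is 25% of the list, against 7.15% of all tested genes. Pdk4, the kinase gene that shuts pyruvate dehydrogenase, had 13.5, 31.9 and 16.5 CPM in WT 1, WT 2 and WT 3 and 6.20, 6.24 and 2.94 CPM in the Het livers 1, Het 2 and Het 3. All Het libraries were below all WT libraries, with a log2 fold change of -2.02 (SE 0.39, edgeR adjusted p 0.504, DESeq2 adjusted p 8.96e-06). G6pc, the glucose-6-phosphatase gene, had 507, 563 and 458 CPM in the WT livers and 427, 316 and 217 CPM in the Het livers. Its log2 fold change of -0.67 (edgeR p 0.0173, adjusted p 0.685) was -0.25 without Het 2 and Het 3. Of 7 tested transcripts that insulin raises, 5 were lower and 2 higher, with a median of -0.45, which was -0.07 without WT 1. By edgeR 2 of the 7 had an unadjusted p under 0.05, which is 28.6% of the list, against 7.15% of all tested genes. Pnpla3, a lipid droplet gene, had 61.7, 19.1 and 17.1 CPM in the WT livers and 1.51, 6.17 and 4.55 CPM in the Het livers (log2 fold change -2.98, edgeR adjusted p 0.531, DESeq2 adjusted p 0.0407). Without WT 1 its log2 fold change was -2.14. Acacb, an acetyl-CoA carboxylase gene, had 260 ± 57.6 CPM in the WT livers and 115 ± 54.5 CPM in the Het livers (SD, n = 3, log2 fold change -1.17, edgeR adjusted p 0.648, DESeq2 adjusted p 0.0135).

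The members followed few common patterns over the 6 libraries. Among their 45 pairs the correlation of log2 CPM ran from -0.66 for Akt2 and Grb14 to 0.90 for Pik3r1 and Grb10, and Insr and Irs1 had an r of 0.73. Both genes of a pair are read from the same 6 libraries, with their depths and scaling factors, so the coefficients are a description. The genes most like a member were sought among 7376 other tested genes of at least 10 CPM on average. Insr was followed most closely by Lactb2, a mitochondrial endoribonuclease gene, and Atl3, an ER-shaping GTPase gene, with an r of 0.997 and 0.996, and 386 genes had an r above 0.9 with it. Lactb2 had 191, 189 and 163 CPM in the WT livers and 111, 177 and 146 CPM in the Het livers, so that Het 1 was its lowest library too. Irs1 was followed by Ttc14 and Polr2m (r of 0.988 for each), Irs2 by Hnrnpl and Zc3h13 (0.98 and 0.975), and Akt2 by Hnrnpd and Ift172 (0.98 and 0.978). The number with an r above 0.9 was 74 for Irs1, 31 for Irs2 and 25 for Akt2. The highest of 7376 coefficients over 6 libraries are large even for unrelated genes, and none of them was tested.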

How the data were processed

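Liver messenger RNA of 6 libraries was analysed from the authors' table of raw read counts per Ensembl gene. Per the submitters' processing notes, the reads had gone through bcl2fastq 2.17.1.14, cutadapt 1.10, STAR 2.5.3a and HTSeq 0.6.1p1 on mm10, with DESeq2 1.16.1 for the authors' statistics. The sources used here name neither the annotation release nor how strand and multi-mapped reads were handled. The normalized columns and the authors' table of differences were not used. Low counts were removed with filterByExpr, libraries were scaled by TMM, and Het was compared with WT by edgeR 4.0.16 (quasi-likelihood, two-sided, genotype only, R 4.3.3) with Benjamini-Hochberg adjustment over 14606 genes and a threshold of 0.05. DESeq2 1.42.0 and limma-voom (limma 3.58.1) were alternatives, as were other scalings and filters, a replicate block, leaving out libraries and a clock score. SEs and 95% intervals come from the quasi-likelihood F statistic. The fit was tested on simulated data. Exon lengths came from GENCODE M21 (GRCm38), whose coordinates matched those of all 10 members.

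The members, the 7 lists and the named genes were chosen with earlier results of these data known. Named were all members, the 2 genes of smallest unadjusted p with at least 1 CPM from each list, the 2 genes most correlated with each of Insr, Irs1, Irs2 and Akt2, Ptprd, and the clock genes Dbp and Arntl. Genes named outside this rule are said to be so. Some genes, and the counts of 1 list, are not reported here. By chi-square no 2 libraries agreed within sampling noise.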

Additional observations from a re-analysis of the deposited data

How the results depend on the processing

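No member passed the adjusted threshold under any of the 15 alternatives, and their median log2 fold change ran from -0.18 with the clock score to -0.04 without WT 3. By adjusted p, DESeq2 called 66 genes in all and 4 other pathway genes. EdgeR without a filter called 73 and 4, with 14 pathway genes at an unadjusted p under 0.05, which 1539 of all 25904 genes passed. At an unadjusted p under 0.05 the counts of all genes, members and other pathway genes were 2092, 2 and 23 without both Het 2 and Het 3, and 1988, 2 and 22 with the clock score as covariate. With 1 library left out they ran from 686 to 1428, 0 to 1 and 5 to 13, and the adjusted calls over all genes from 0 to 1. The member counted was Irs2 without WT 1, where 739 of all 14868 tested genes passed. Without Het 2 it was Insr, in the fit where 1428 genes passed. The pathway count was 5 without WT 1 or WT 2. The cause of these shifts was not tested. Some members changed sign. Akt1 was at -6.79e-05 with the filter of 1 CPM in 3 libraries, Akt2 at -0.0122 with the clock score and -0.0226 without both Het 2 and Het 3, Grb14 at 0.13 and 0.20, and Irs2 at 0.0820 without both. With 1 library left out Akt1 ran from -0.0728 to 0.0681, Irs2 from -0.69 to 0.0664, Pik3r1 from -0.21 to 0.11, Grb14 from -0.13 to 0.0803 and Ptpn1 from -0.0597 to 0.0977. The log2 ratio differences then ran from -0.40 to 0.53 for Irs2 over Irs1, -0.0513 to 0.11 for Akt2 over Akt1, -0.0607 to 0.17 for Pik3r1 over Pik3ca and -0.0828 to 0.41 for Grb14 over Grb10. Without both Het 2 and Het 3 they were -0.0703 for Akt2 over Akt1 and -0.14 for Pik3r1 over Pik3ca. Libraries of the same replicate number correlated at -0.07, 0.12 and 0.15 (deviations from the genotype means). So few libraries cannot decide whether the numbers pair the samples, and the labels do not say. With the replicate block edgeR called 0 members, 1103 genes had an unadjusted p under 0.05, and Ptpn1 was at -0.00065. Not every library correlated best with its own number. Counts of 93 to 299 limit Grb10, and the spread between livers limits Irs2.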
